A study of Saccharomyces cerevisiae with 12 samples.

Results

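Ergosterol is the main sterol of the yeast plasma membrane, and a yeast cell either builds it from acetyl-CoA or, when oxygen is missing, takes sterol up from outside. The 32 genes described here, of 7150 gene models in the table, are those chosen by name for these tasks: 23 genes of ergosterol synthesis, 3 of sterol uptake (AUS1, PDR11 and SUT1), the regulators UPC2 and ECM22, and 4 of sterol esterification and transport (ARE1, ARE2, HES1 and NCR1). The choice was made with earlier results of these data known. RNA was measured in 4 groups of haploid MATa yeast grown to log phase at 30 °C in rich medium with 2% glucose. The cyc8 snf2 group (4 libraries) was strain YDB1.7, which is FY2083 with cyc8::URA3. The cyc8 group (3 libraries) was YAFTCD4, which is BY4741 with cyc8::KAN. The snf2 group (2 libraries) was FY2083 itself, a strain with snf2::LEU2 that also carries his3del200, trp1-del63 and lys2del0. The wt group (3 libraries) was BY4741, with his3del1 and leu2del0, and met15del0 and ura3del0 were listed for both backgrounds. Since the snf2 label always came with FY2083 and its absence with BY4741, the snf2 mutation and the strain background cannot be told apart. The comparisons of cyc8 with wt and of cyc8 snf2 with snf2 each stayed within a background and shared no library. The groups set mutants of CYC8, of SNF2, the ATPase of the Swi-Snf remodeler, and of both beside wt.

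The pathway has an early part that makes farnesyl pyrophosphate through mevalonate, a middle part that makes squalene and closes it into lanosterol, and a late part that turns lanosterol into ergosterol. Several late enzymes use molecular oxygen and heme or iron. Aus1 and Pdr11 are ABC transporters that import sterol, and Sut1 and Upc2 are zinc-cluster transcription factors known to promote uptake under low oxygen. Cyc8 (also Ssn6) works with Tup1 as a corepressor that repressors such as Rox1 and Mot3 bring to promoters of hypoxic genes. Swi-Snf moves nucleosomes with energy from ATP.

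Levels are given as CPM, counts per 1000000 of a library's counts scaled by TMM, and comparisons as log2 fold changes ± SE from edgeR's quasi-likelihood test over 6171 genes. A gene is said to have risen or fallen where its Benjamini-Hochberg adjusted p was below 0.05 and its change at least 2-fold, and smaller changes past the adjusted p alone are called higher or lower. Library totals were 16378131 to 27230568 counts, and the lowest count of any of the 32 genes in any library was 32, so all 32 passed the filter on low counts. The labels do not state whether the libraries within a group were separate cultures, and p-values therefore reflect only library-to-library spread, possibly technical. In bulk RNA, less RNA per cell and fewer expressing cells cannot be told apart. Neither targeted transcript disappeared in its own mutant. CYC8 stood at 50.0 to 55.5 CPM in cyc8 snf2, 54.1 to 63.3 in cyc8, 58.2 to 64.9 in snf2 and 69.9 to 82.5 in wt, and SNF2 at 103 to 113, 73.2 to 89.2, 65.3 to 66.6 and 70.6 to 85.3 in the same order. Groups are therefore called by their labels. The marker LEU2 stood at 173 to 323 CPM in cyc8 snf2 and 468 to 498 in snf2, with at most 3 counts in any cyc8 or wt library, and URA3 at 16.7 to 19.6 CPM in cyc8 snf2, with at most 1 count in any other library. The summed level of the a-cell markers, 702 to 791 CPM in cyc8 snf2, 924 to 1233 in cyc8 and 699 in both snf2 libraries, against 2091 to 2281 in wt, was lower in the mutant groups, while the alpha-cell markers summed to 16.5 to 18.9, 15.4 to 17.6, 32.9 to 34.8 and 23.9 to 27.5 in the same order. The part of these in the results was not tested. The gene models of ERG28, ERG6 and ERG9 overlapped another model on the same strand over 48.8%, 54.5% and 25.4% of their length, so their levels are less certain.

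Upc2 and Ecm22 are known to bind the core TCGTATA of the sterol response element, and TCGTTTA is the core of the related AR1 element of anaerobic genes. In the 600 bases before the start codon, read on both strands, 27 of the 32 genes (84.4%) held at least 1 of these words, against 17.5% of the 5999 windows of protein-coding genes. TCGTATA was in 8 of 32 (25.0%), against 8.58% of all windows, and TCGTTTA in 22 of 32 (68.8%), against 10.3%. The Rox1 core ATTGTTC was in 7 of 32 (21.9%), against 13.9%, and the Hap1 site in 0 of 32, against 0.533%. In ERG26 a TCGTTTA match shared 1 base with a Rox1 core, and no other matches of different motifs overlapped. The 43 matches to TCGTATA or TCGTTTA lay 32 to 585 bases from the start codon, with a median of 304. ERG12, IDI1, SUT1, ARE2 and NCR1 held neither word in this window. The gene models of SUT1, ERG9 and ERG28 begin 708, 797 and 1416 bases before the start codon. Their windows of 600 bases thus lay wholly inside the model and did not reach the sequence before it. All matches of ERG9, ERG20, ERG26, ERG27 and ERG28 to TCGTATA or TCGTTTA lay inside their own models. A match is a description of the letters and not a site.

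The stretches that follow are the windows around such matches for genes on which the results turn, from the RefSeq sequence of build R64 in the direction of each gene, with its strand in parentheses and matches to either word, or to its reverse complement, in capitals. ERG25 and ERG3 are shown for their clusters, which hold all 5 matches of ERG25 and 4 of the 5 of ERG3, the next 5 as synthesis, uptake, regulator and transport genes that rose in cyc8, and the last 3 as synthesis genes that did not.
ERG25 chrVII:609998-610135 (+): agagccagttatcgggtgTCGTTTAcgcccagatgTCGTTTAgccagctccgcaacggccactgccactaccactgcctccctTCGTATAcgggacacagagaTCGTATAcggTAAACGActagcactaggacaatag
ERG3 chrXII:253485-253599 (+): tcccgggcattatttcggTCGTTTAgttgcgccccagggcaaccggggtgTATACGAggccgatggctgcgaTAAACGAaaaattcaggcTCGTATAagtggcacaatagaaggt
ERG11 chrVIII:122165-122207 (-): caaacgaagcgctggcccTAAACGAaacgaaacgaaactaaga
AUS1 chrXV:349312-349354 (+): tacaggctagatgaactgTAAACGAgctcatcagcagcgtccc
PDR11 chrIX:332848-332890 (-): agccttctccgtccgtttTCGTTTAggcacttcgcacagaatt
UPC2 chrIV:889374-889416 (+): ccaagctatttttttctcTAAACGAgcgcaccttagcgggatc
HES1 chrXV:781641-781683 (+): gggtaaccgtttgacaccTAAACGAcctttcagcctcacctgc
ERG7 chrVIII:238888-238940 (+): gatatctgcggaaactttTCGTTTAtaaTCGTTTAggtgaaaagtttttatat
ERG24 chrXIV:110662-110704 (-): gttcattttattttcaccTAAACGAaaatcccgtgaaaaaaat
MVD1 chrXIV:701777-701819 (+): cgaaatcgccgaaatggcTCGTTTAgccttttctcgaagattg

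The ERG25 stretch lies 566 to 429 bases and the ERG3 stretch 376 to 262 bases before the start codon. Genes that rose in cyc8 and genes that did not both carried the words: 11 of the 12 that rose held at least 1, as did 16 of the 20 that did not. The exception among the 12 was SUT1, whose window lay wholly inside its own gene model, so the sequence before that model was not read. The same holds for ERG28, which is among the 11 through a match inside its own model. ERG7, lanosterol synthase, with 2 TCGTTTA words side by side, and ERG24, a sterol reductase, had log2 fold changes in cyc8 against wt of -0.12 ± 0.09 and -0.15 ± 0.07.

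**Figure D1:**
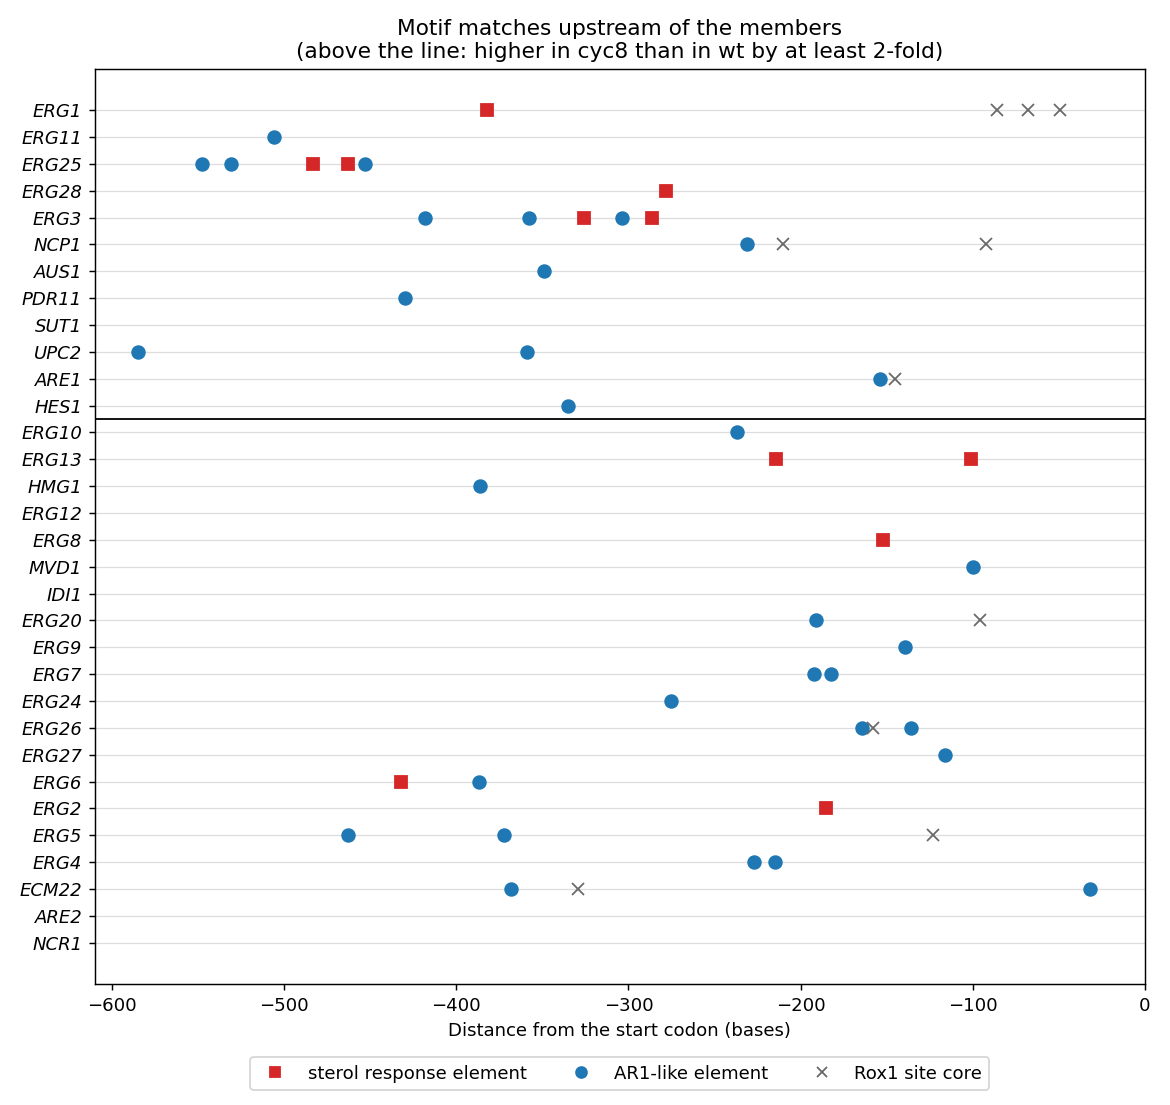
Matches to TCGTATA (sterol response element, squares), to TCGTTTA (AR1-like element, circles) and to the Rox1 core (crosses) in the 600 bases before the start codon (x axis, distance from the start codon in bases), with a row for each of the 32 genes. The 12 rows above the line are genes that rose in cyc8 against wt. ERG25 and ERG3 hold 5 sterol matches each. SUT1 holds none of the 3 words in its window, which lies wholly inside its own gene model.

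The uptake genes rose the most as a group. In cyc8 against wt all 3 rose, where 10.4% of all genes tested rose, and their median log2 fold change was 3.21, against -0.05 over all genes. SUT1 (YGL162W), the transcription factor named for sterol uptake, had 107, 145, 146 and 119 CPM in cyc8 snf2, 230.4, 216 and 219 in cyc8, 16.8 and 20.2 in snf2 and 16.6, 15.2 and 18.1 in wt. Every cyc8 and cyc8 snf2 library was above every snf2 and wt library, the last groups overlapped each other, and the cyc8 libraries were the highest. SUT1 was thus 13.3-fold higher in cyc8 than in wt (log2 3.73 ± 0.13, adjusted p = 3.09e-11, edgeR) and 6.98-fold higher in cyc8 snf2 than in snf2 (log2 2.80 ± 0.14, adjusted p = 3.64e-09).

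AUS1 (YOR011W), an ABC transporter for sterol, had 261, 246, 246 and 213 CPM in cyc8 snf2, 401, 368 and 424 in cyc8, 73.0 and 74.8 in snf2 and 60.6, 60.2 and 65.7 in wt. The groups did not overlap, with cyc8 highest and cyc8 snf2 between cyc8 and the other groups. Its rise was 6.40-fold in cyc8 against wt (log2 2.68 ± 0.09, adjusted p = 1.57e-11, edgeR) and 3.27-fold in cyc8 snf2 against snf2 (log2 1.71 ± 0.09, adjusted p = 7.53e-09). PDR11 (YIL013C), the related transporter, was expressed at lower levels, with 42.9, 45.3, 43.2 and 48.6 CPM in cyc8 snf2, 106, 88.9 and 99.9 in cyc8, 11.3 and 14.1 in snf2 and 12.1, 10.5 and 9.22 in wt. The order of its groups was as for AUS1, except that snf2 and wt overlapped. PDR11 rose 9.25-fold in cyc8 against wt (log2 3.21 ± 0.12, adjusted p = 7.37e-11, edgeR) and 3.54-fold in cyc8 snf2 against snf2 (log2 1.83 ± 0.13, adjusted p = 1.08e-07). Per length, AUS1 exceeded PDR11 4.44 to 6.18-fold in cyc8 snf2 libraries, 3.81 to 4.30-fold in cyc8, 5.38 to 6.52-fold in snf2 and 5.05 to 7.21-fold in wt. Only the cyc8 libraries lay wholly below the wt libraries in this ratio.

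Of the paralogous regulators, UPC2 (YDR213W) rose and ECM22 (YLR228C) did not. UPC2, which activates both synthesis and uptake genes when sterol is short, had 116, 110.1, 109 and 96.5 CPM in cyc8 snf2, 175, 176 and 201 in cyc8, 21.5 and 20.2 in snf2 and 27.6, 25.9 and 20.9 in wt. The cyc8 and cyc8 snf2 libraries did not overlap each other or the remaining groups, and snf2 overlapped wt. UPC2 was 7.41-fold higher in cyc8 than in wt (log2 2.89 ± 0.11, adjusted p = 8.66e-11, edgeR) and 5.17-fold higher in cyc8 snf2 than in snf2 (log2 2.37 ± 0.12, adjusted p = 4.06e-09). ECM22, known as the main activator of sterol genes when sterol is plentiful, had 80.0, 61.1, 57.3 and 47.6 CPM in cyc8 snf2, 50.8, 47.7 and 48.4 in cyc8, 79.4 and 79.0 in snf2 and 44.1, 43.7 and 34.8 in wt. Its libraries of cyc8 snf2 spread from near the cyc8 level to the snf2 level, and the test gave log2 0.26 ± 0.15, adjusted p = 0.176 in cyc8 against wt and -0.36 ± 0.16, adjusted p = 0.0722 in cyc8 snf2 against snf2 (edgeR). Per length, UPC2 stood at 1.37 to 1.92 times ECM22 in cyc8 snf2, 3.27 to 3.92 times in cyc8, 0.242 to 0.257 times in snf2 and 0.562 to 0.593 times in wt. UPC2 was thus the more abundant of the pair in every library with the cyc8 label and the less abundant in every other library.

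**Figure D2:**
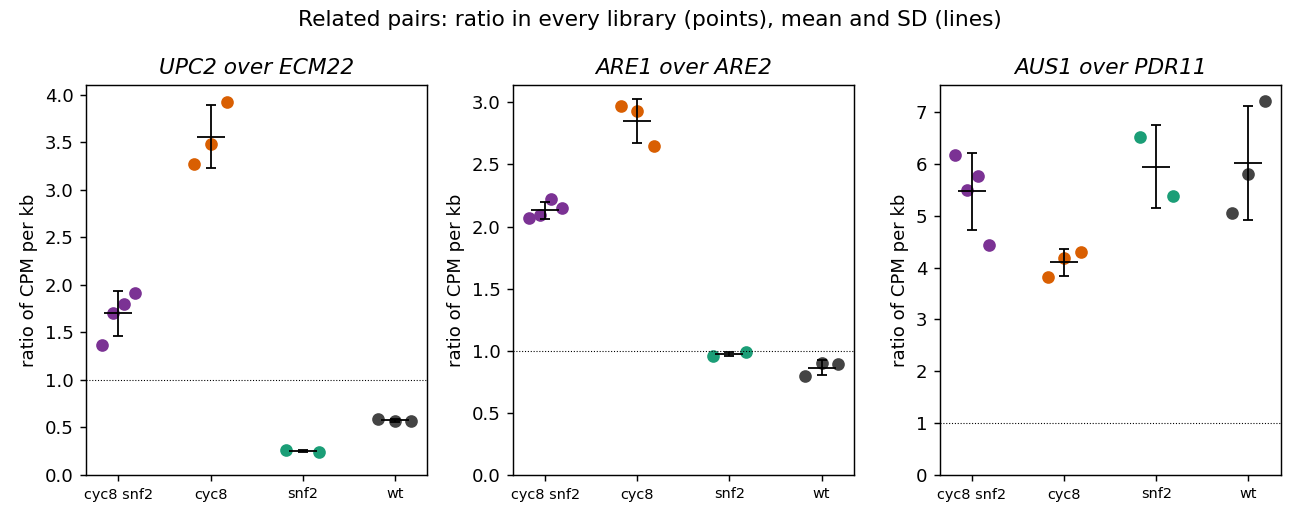
Ratio of CPM per kb within each library (y axis, linear, from 0) for UPC2 over ECM22, ARE1 (YCR048W) over ARE2 (YNR019W) and AUS1 over PDR11 in the 4 groups (x axis), with a point per library, lines at the mean and SD, and a dotted line at a ratio of 1. UPC2 over ECM22 is above 1 in all cyc8 snf2 and cyc8 libraries and below 1 in all snf2 and wt libraries.

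The synthesis genes that rose in cyc8 against wt lay after the mevalonate steps. Of the 23 synthesis genes, 6 rose in cyc8 against wt and 0 fell, where 10.4% of all genes rose and 3.48% fell, and the median over the 23 was only 0.09. Across the comparisons, 0.924% to 10.4% of all genes rose and 3.01% to 5.4% fell, shares at which a list of 8 genes holds few calls. By edgeR, 0 of the 8 genes of the mevalonate steps rose or fell in any comparison, though at an unadjusted p below 0.05 there were 1 higher and 2 lower in cyc8 against wt. In cyc8 against wt their log2 fold changes ran from -0.57 for HMG1 (YML075C) to 0.19 for ERG10 (YPL028W), with 2 of 8 lower at adjusted p below 0.05 and 0 higher (23.9% and 22.9% of all genes). Their summed level was 1314 to 1405 CPM in cyc8 snf2, 1388 to 1516 in cyc8, 1601 to 1640.3 in snf2 and 1487 to 1560.1 in wt. The group means stayed near that of wt, at 0.890 of the wt mean in cyc8 snf2, 0.948 in cyc8 and 1.07 in snf2.

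HMG1, an HMG-CoA reductase and a rate-limiting enzyme of the pathway, was lower in all mutants, with 89.5, 90.3, 97.4 and 90.2 CPM in cyc8 snf2, 83.4, 76.6 and 77.7 in cyc8, 78.9 and 80.1 in snf2 and 121, 118 and 114 in wt. No mutant library reached the lowest wt library. The difference was log2 -0.57 ± 0.07, adjusted p = 7.99e-06 in cyc8 and -0.57 ± 0.07, adjusted p = 5.43e-05 in snf2, each against wt (edgeR), short of 2-fold in both. The isoform HMG2, not among the 32 and named after its values were seen, had 143 to 247 CPM in cyc8 snf2, 170.4 to 187 in cyc8, 160.5 to 166 in snf2 and 145 to 200.1 in wt, with all groups overlapping wt. ERG12 (YMR208W), mevalonate kinase, and MVD1 (YNR043W), mevalonate pyrophosphate decarboxylase, were high in snf2 alone. ERG12 had 51.3, 47.3, 46.3 and 48.8 CPM in cyc8 snf2, 51.9, 49.2 and 50.6 in cyc8, 86.9 and 88.7 in snf2 and 53.3, 54.6 and 49.4 in wt, and MVD1 had 185, 176, 196 and 169.7 CPM in cyc8 snf2, 181, 176 and 162 in cyc8, 302 and 282 in snf2 and 189, 170.0 and 184 in wt. In snf2 both lay above all other libraries, while cyc8 snf2, cyc8 and wt overlapped. The differences in cyc8 snf2 against snf2 were log2 -0.86 ± 0.07, adjusted p = 5.85e-07 for ERG12 and -0.69 ± 0.08, adjusted p = 1.04e-05 for MVD1 (edgeR). ERG13 (YML126C), HMG-CoA synthase, was likewise highest in snf2, at 424 to 461 CPM in cyc8 snf2, 352 to 394 in cyc8, 583 to 593 in snf2 and 411 to 439.9 in wt. ERG20 (YJL167W), farnesyl pyrophosphate synthase, and ERG10, acetoacetyl-CoA thiolase, went the other way in snf2 against wt, with log2 -0.58 ± 0.09 and -0.30 ± 0.09. IDI1 (YPL117C), the isopentenyl pyrophosphate isomerase, differed by -0.38 ± 0.10 in that comparison, and ERG8 (YMR220W), phosphomevalonate kinase, by 0.09 ± 0.11, of which the last missed the adjusted p.

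Among the 3 genes between farnesyl pyrophosphate and lanosterol, ERG1 (YGR175C) rose. ERG1, squalene epoxidase and the first step that needs oxygen, had 1173, 1223, 1181 and 1144 CPM in cyc8 snf2, 1696, 1489 and 1520.1 in cyc8, 814 and 801 in snf2 and 543, 535 and 542 in wt. The groups were ordered cyc8, cyc8 snf2, snf2 and wt from high to low, with no overlap. ERG1 was 2.91-fold higher in cyc8 than in wt (log2 1.54 ± 0.07, adjusted p = 6.62e-10, edgeR) and 2.19-fold higher in cyc8 snf2 than in wt (log2 1.13 ± 0.07, adjusted p = 8.57e-09). ERG9 (YHR190W), squalene synthase, had 221 to 275 CPM in cyc8 snf2, 228 to 239.9 in cyc8, 239 to 259 in snf2 and 173 to 199 in wt, and ERG7 (YHR072W) had 47.8 to 59.5, 52.5 to 57.4, 64.9 to 65.7 and 55.4 to 63.0 CPM in the same order. Neither reached a 2-fold change in any comparison.

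Of the 12 genes from lanosterol onward, 5 rose in cyc8 against wt and 0 fell, where 10.4% of all genes rose and 3.48% fell. ERG25 (YGR060W), the oxidase that removes sterol methyl groups, changed most, with 1679, 1491, 1685 and 1432 CPM in cyc8 snf2, 2028, 1675 and 1799 in cyc8, 763 and 713 in snf2 and 312, 302 and 349.9 in wt. Its cyc8 and cyc8 snf2 libraries overlapped, snf2 lay below them and wt lay lowest. The fold in cyc8 against wt was 5.71 (log2 2.51 ± 0.10, adjusted p = 1.43e-10, edgeR), and in cyc8 snf2 against snf2 it was 2.13 (log2 1.09 ± 0.11, adjusted p = 2.69e-06). ERG3 (YLR056W), the desaturase that acts near the end of the pathway, had 867, 921, 846 and 865 CPM in cyc8 snf2, 1669, 1428 and 1424 in cyc8, 433 and 442 in snf2 and 288, 259.7 and 323 in wt. All groups stood apart, with the cyc8 libraries highest. ERG3 rose 5.19-fold in cyc8 against wt (log2 2.38 ± 0.09, adjusted p = 1.21e-10, edgeR), and in cyc8 snf2 against snf2 its log2 difference of 0.998 lay just under the 2-fold line. ERG11 (YHR007C), the lanosterol demethylase that azole drugs inhibit, had 1389, 1663, 1653 and 1618 CPM in cyc8 snf2, 2391, 2311 and 2275 in cyc8, 834 and 806 in snf2 and 753, 799.8 and 698 in wt. All cyc8 and cyc8 snf2 libraries exceeded all others, and snf2 lay just above wt. It rose 3.10-fold in cyc8 against wt (log2 1.63 ± 0.09, adjusted p = 2.66e-09, edgeR).

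NCP1 (YHR042W), the reductase that passes electrons to Erg11 and Erg5, had 502, 521, 506 and 473 CPM in cyc8 snf2, 530.1, 561 and 475 in cyc8, 315 and 314 in snf2 and 221, 205 and 199.7 in wt. The cyc8 snf2 and cyc8 libraries overlapped at the top and wt was lowest. NCP1 rose 2.50-fold in cyc8 against wt (log2 1.32 ± 0.08, adjusted p = 6.39e-09, edgeR). ERG28 (YER044C), a scaffold that holds the demethylating enzymes together, had 232, 184, 184 and 183 CPM in cyc8 snf2, 349, 275 and 306 in cyc8, 90.1 and 90.4 in snf2 and 116, 139.6 and 102 in wt. The snf2 libraries were below wt, and the cyc8 libraries were highest. ERG28 rose 2.60-fold in cyc8 against wt (log2 1.38 ± 0.13, adjusted p = 1.1e-06, edgeR). The model of ERG28 overlaps MEI4, a meiotic gene on the same strand, whose own row held at most 0.629 CPM in any library. That row may leave out the shared stretch, since all 109 models inside a model of the same strand had 0 counts. It thus does not settle the level of either gene there.

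ERG5 (YMR015C) and ERG4 (YGL012W), which carry out the last desaturation and the last reduction, followed other patterns. ERG5 had 227, 221, 211 and 213 CPM in cyc8 snf2, 213, 187 and 217 in cyc8, 65.6 and 67.7 in snf2 and 129.5, 155 and 151 in wt. Its snf2 libraries were the lowest and wt lay between these and the cyc8-labelled groups, which overlapped. ERG4 had 621, 558, 554 and 578 CPM in cyc8 snf2, 483, 449 and 448 in cyc8, 539.6 and 533 in snf2 and 280.2, 255 and 329 in wt. Its snf2 libraries were close to the cyc8 snf2 libraries, cyc8 lay below both, and wt was lowest. ERG2 (YMR202W), the sterol isomerase, ERG6 (YML008C), the sterol methyltransferase, ERG24 (YNL280C), ERG26 (YGL001C), a decarboxylase, and ERG27 (YLR100W), a keto reductase, did not reach 2-fold in any comparison. ERG26 was the most different of these in cyc8 snf2 against snf2 (log2 -0.79 ± 0.08, adjusted p = 2.08e-06, edgeR), at 80.3 to 82.5 CPM in cyc8 snf2 and 137 to 144 in snf2. Among genes that use oxygen directly in their step (ERG1, ERG11, ERG25, ERG3 and ERG5), 4 of 5 rose in cyc8 against wt, with a median of 1.63, and 2 of the other 18 synthesis genes did, with a median of -0.01. In cyc8 snf2 against wt, 4 of 5 and 2 of 18 rose, and in cyc8 snf2 against snf2, 2 of 5 and 1 of 18 rose. Over all genes tested, 10.4% rose in cyc8 against wt, 9.71% in cyc8 snf2 against wt and 9.12% in cyc8 snf2 against snf2. The split of synthesis genes by oxygen use was chosen after the values were seen.

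**Figure D3:**
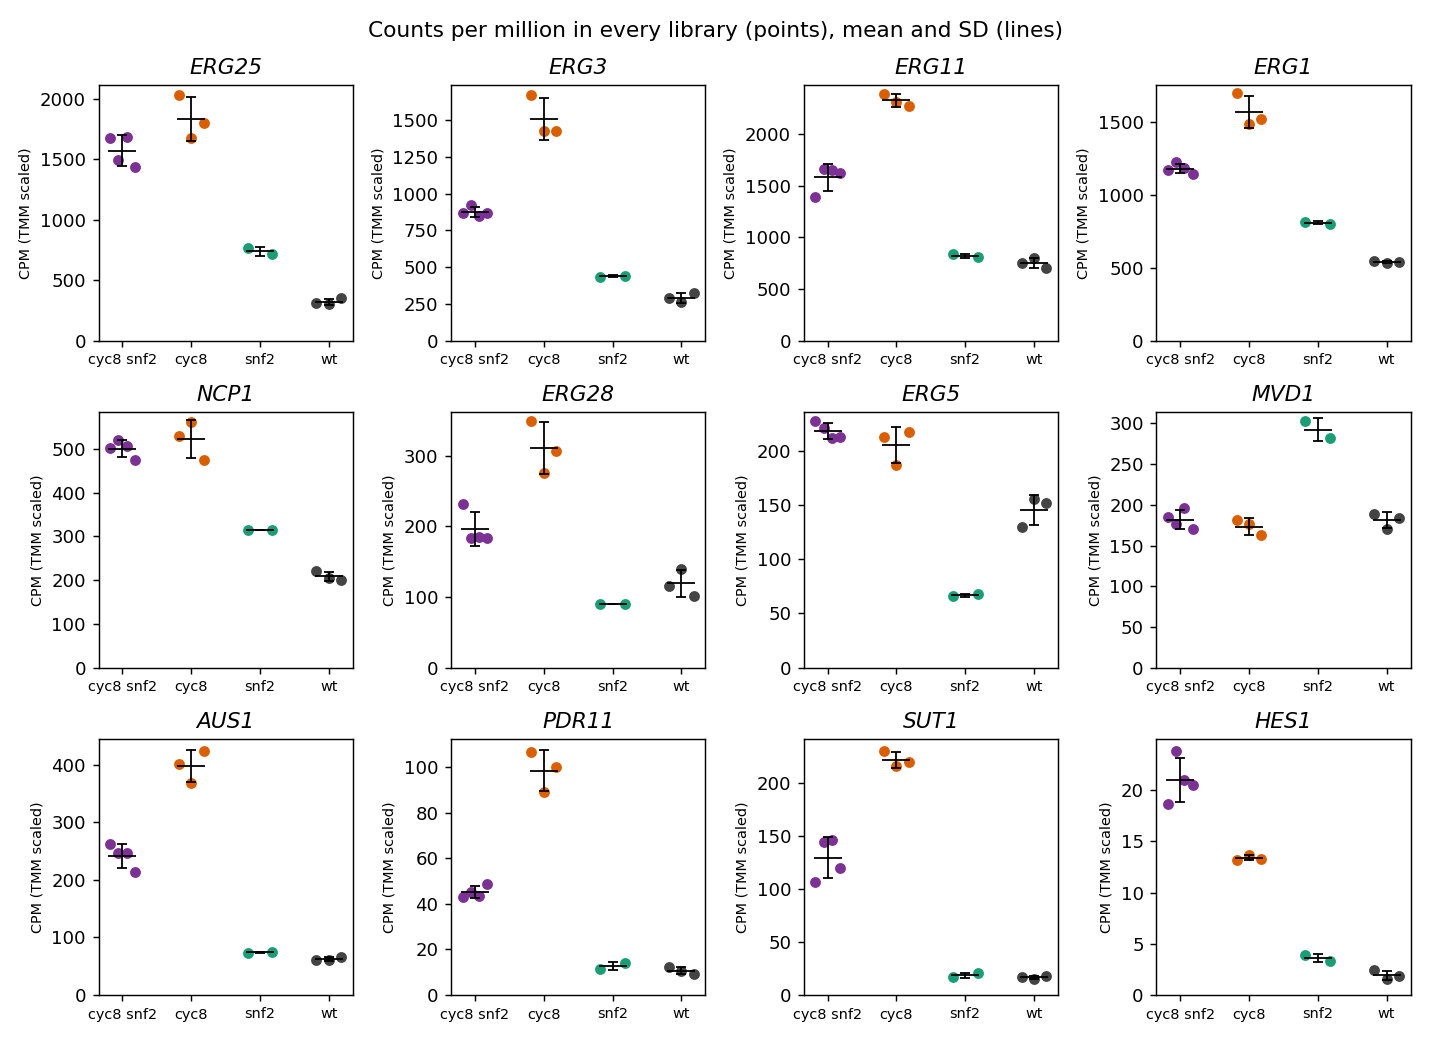
CPM (y axes, linear, from 0) of 12 of the 32 genes in each of the 12 libraries (points), with lines at the mean and SD of the cyc8 snf2, cyc8, snf2 and wt groups (x axes). All genes shown except MVD1, among them HES1 (YOR237W), separate the cyc8-labelled libraries from the rest. ERG5 is lowest in snf2, and MVD1 is highest in snf2.

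Set side by side, the summed transporter level differed from wt by a larger factor than the summed synthesis level in cyc8 snf2 and cyc8, and by a smaller factor in snf2. The 23 synthesis genes summed to 8912 to 9416 CPM in cyc8 snf2, 10832 to 11944 in cyc8, 6702 to 6857 in snf2 and 5104 to 5256 in wt. The transporters AUS1 and PDR11 summed to 262 to 304 CPM in cyc8 snf2, 457 to 524 in cyc8, 84.4 to 88.8 in snf2 and 70.7 to 75.0 in wt. Relative to wt, the mean synthesis sum was 1.79 times in cyc8 snf2, 2.17 times in cyc8 and 1.31 times in snf2, and the mean transporter sum 3.94, 6.82 and 1.19 times in the same order. For each 1000 CPM of synthesis there were 29.4 to 32.7 CPM of transporter in cyc8 snf2, 42.2 to 48.4 in cyc8, 12.3 to 13.3 in snf2 and 13.7 to 14.3 in wt. The snf2 libraries lay just below wt in this ratio and the cyc8-labelled libraries far above it. A few genes made up much of the synthesis sum: ERG1, ERG11, ERG25 and ERG3 gave 54.8% to 57.0% of the synthesis sum in cyc8 snf2, 63.7% to 65.2% in cyc8, 41.2% to 41.5% in snf2 and 36.4% to 37.1% in wt. The 19 other synthesis genes summed to 3853 to 4208 CPM in cyc8 snf2, 3813 to 4159.8 in cyc8, 3939.8 to 4012 in snf2 and 3208 to 3343 in wt, so that the mutant groups overlapped on these genes while all lay above wt. ERG1, ERG11, ERG25 and ERG3 are among the 6 synthesis genes that rose in cyc8 against wt. Leaving them out brings the remaining sums closer together by construction.

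The order of levels among synthesis genes changed with the groups. As mean CPM per kb of model, ERG25 led in cyc8 snf2 at 1151 and in cyc8 at 1343, was below ERG2 in snf2 at 540.5 and held rank 5 in wt at 235. ERG2 led in snf2 at 591 and in wt at 377, where ERG11 followed at 353.

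Esterification, which stores sterol as lipid droplets, split between its enzymes. ARE1, the sterol acyltransferase known for a larger role without oxygen, had 159.6, 151, 173 and 146 CPM in cyc8 snf2, 157, 162 and 138 in cyc8, 105 and 112 in snf2 and 57.3, 57.3 and 54.7 in wt. The cyc8 snf2 and cyc8 libraries overlapped above snf2, and wt was lowest. ARE1 rose 2.70-fold in cyc8 against wt (log2 1.43 ± 0.08, adjusted p = 6.39e-09, edgeR). ARE2, the main aerobic acyltransferase, had 70.8, 66.2, 71.2 and 62.6 CPM in cyc8 snf2, 48.5, 50.6 and 48.0 in cyc8, 101 and 105 in snf2 and 66.2, 58.4 and 56.2 in wt. It was highest in snf2 and lowest in cyc8, with log2 -0.30 ± 0.08, adjusted p = 0.00777 in cyc8 against wt (edgeR). Per length, ARE1 over ARE2 was 2.07 to 2.22 in cyc8 snf2, 2.65 to 2.97 in cyc8, 0.960 to 0.986 in snf2 and 0.795 to 0.901 in wt, above 1 only in the cyc8-labelled groups. HES1, a sterol-binding protein of the oxysterol-binding family, had 18.7, 23.9, 21.0 and 20.5 CPM in cyc8 snf2, 13.2, 13.7 and 13.3 in cyc8, 3.91 and 3.30 in snf2 and 2.41, 1.52 and 1.79 in wt. It is the member with the lowest wt level, and its cyc8 snf2 libraries were above the cyc8 libraries. HES1 rose 10.9-fold in cyc8 snf2 against wt (log2 3.45 ± 0.15, adjusted p = 4.73e-10, edgeR) and 6.95-fold in cyc8 against wt (log2 2.80 ± 0.16, adjusted p = 6.23e-09). NCR1 (YPL006W), a vacuolar sterol transporter, did not reach 2-fold in any comparison and stood at 80.5 to 101 CPM in cyc8 snf2, 98.8 to 103 in cyc8, 123 to 126 in snf2 and 98.6 to 103 in wt.

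Over the 32 genes, 12 rose in cyc8 against wt (37.5%) and 0 fell, where 10.4% of all genes rose and 3.48% fell. The 32 were chosen with earlier results of these data known, so their shares beside those of all genes are a description and not a test. No cyc8 library overlapped a wt library in any of the 12, but the same held for 11 genes that did not rise. The share of all genes without overlap was not counted. The median log2 fold change of the 32 was 0.24. At adjusted p below 0.05 alone, 16 were higher and 4 lower, against 22.9% and 23.9% of all genes. In cyc8 snf2 against snf2, 8 rose (25.0%) and 0 fell, where 9.12% of all genes rose and 3.08% fell, with a median of 0.20 against -0.03 over all genes. At adjusted p below 0.05 alone, 16 were higher and 8 lower, against 24.3% and 23.8% of all genes. AUS1, ERG25, ERG28, HES1, PDR11, SUT1 and UPC2 rose in both, which is 7 of 12 and 7 of 8. The exception in the FY2083 background was ERG5, which rose 3.27-fold in cyc8 snf2 against snf2 (log2 1.71 ± 0.09, adjusted p = 6.9e-09, edgeR) and was higher by only 0.50 ± 0.08 in cyc8 against wt. Of these comparisons, cyc8 against wt alone passed the call for ERG3, ERG11, ERG1, ARE1 and NCP1. In cyc8 snf2 against snf2 their log2 fold changes were 0.998, 0.95, 0.55, 0.53 and 0.67, all higher at adjusted p below 0.05. Without cyc8 snf2 replicate 1, ERG3 and ERG11 both passed 2-fold in cyc8 snf2 against snf2 and the count was 10. With upper-quartile scaling, which shifted the median of all genes by -0.12 in cyc8 against wt and -0.13 in cyc8 snf2 against snf2, ERG28 (0.99) and ERG25 (0.96) fell short of 2-fold in cyc8 snf2 against snf2.

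**Figure D4:**
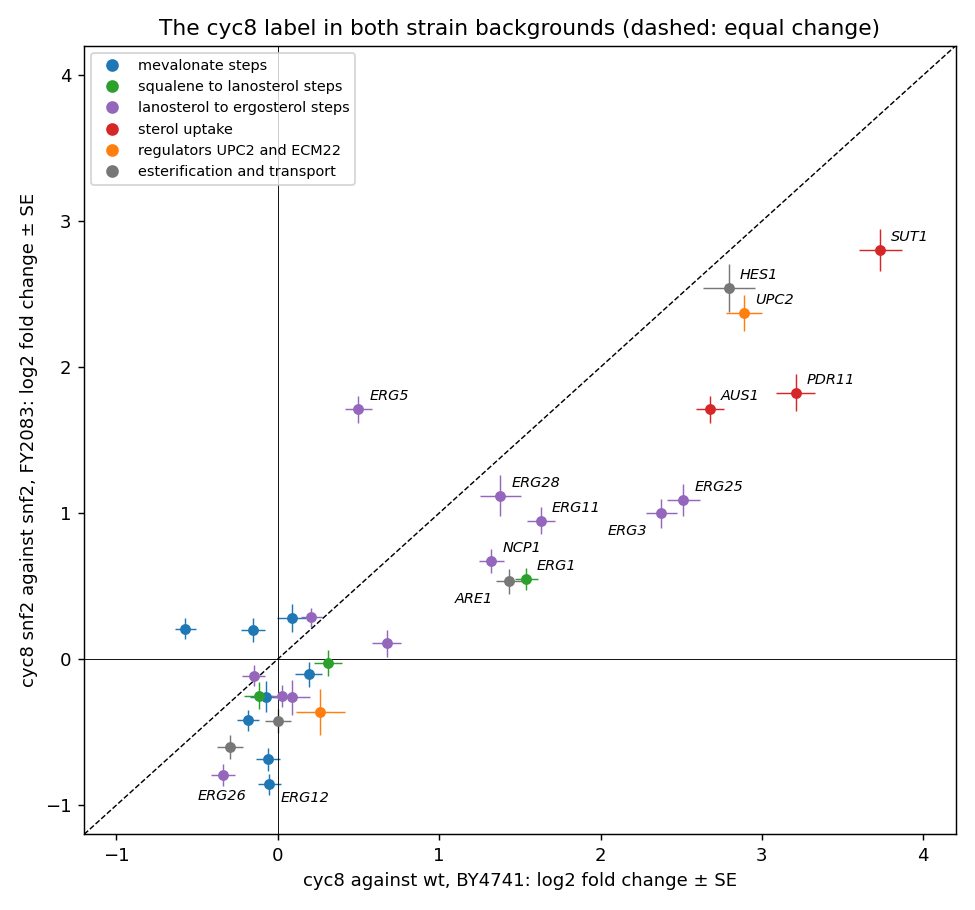
Log2 fold change ± SE of each of the 32 genes in cyc8 against wt (x axis) and in cyc8 snf2 against snf2 (y axis), coloured by role, with the dashed line at equal change. Most genes, among them the uptake genes, ERG25 and ERG3, lie right of the line, and ERG5 lies farthest left of it.

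The interaction, the change in cyc8 snf2 against snf2 minus the change in cyc8 against wt, tests that difference for each gene. It passed both thresholds for 3 genes below 0, ERG25 (log2 -1.42 ± 0.14, adjusted p = 1.05e-05, edgeR), PDR11 (-1.38 ± 0.17, adjusted p = 5.63e-05) and ERG3 (-1.38 ± 0.13, adjusted p = 7.63e-06), and for 1 above 0, ERG5 (1.21 ± 0.12, adjusted p = 1.25e-05). Over all genes 4.7% passed below 0 and 4.2% above. At adjusted p below 0.05 alone, 15 of the 32 were below 0 and 3 above, against 12.7% and 13.7% of all genes. The 3 uptake genes and UPC2 were among the 15, with AUS1 at -0.97, SUT1 at -0.93 and UPC2 at -0.52. Beside these, ERG25 and ERG3, the 15 held synthesis and esterification genes at similar values: ERG1 (-0.99), ARE1 (-0.90), ERG12 (-0.81), ERG11 (-0.69), NCP1 (-0.65) and MVD1 (-0.62). The rest were ERG4 (-0.57), ERG26 (-0.45) and NCR1 (-0.43). HMG1, at 0.78, and ERG20, at 0.35, joined ERG5 above 0. Leaving out snf2 replicate 1 brought the count below 0 to 6 and leaving out cyc8 replicate 2 brought it to 5, by adding ERG1, AUS1 and SUT1 or ERG1 and AUS1. The interaction also holds the differences between backgrounds and between the alleles cyc8::KAN and cyc8::URA3, which cannot be told apart from that of SNF2.

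In snf2 against wt, ERG25 rose and ERG5 fell. The uptake genes did neither, 0 passed the adjusted p and 1 (AUS1) an unadjusted p below 0.05, with log2 0.25 ± 0.09 for AUS1, 0.25 ± 0.13 for PDR11 and 0.15 ± 0.14 for SUT1. ERG25 rose 2.30-fold (log2 1.20 ± 0.11, adjusted p = 1.56e-06, edgeR) and ERG5 fell, being 2.18-fold lower (log2 -1.12 ± 0.09, adjusted p = 1.03e-06). That is 1 of 32 in each direction, where 4.25% of all genes rose and 5.4% fell. Smaller differences were common: 18 of 32 were higher and 6 lower at adjusted p below 0.05, against 17.3% and 18.7% of all genes, with a median of 0.35 against 0.02 over all genes. Among the higher genes were ECM22 (0.96), ARE1 (0.95), HES1 (0.91), ERG4 (0.90), ARE2 (0.77), ERG12 (0.74) and MVD1 (0.69), with the other 10 beside ERG25 between 0.30 and 0.65. Lower were ERG20 (-0.58), HMG1 (-0.57), ERG28 (-0.40), IDI1 (-0.38) and ERG10 (-0.30) beside ERG5. The count of genes that rose depended on single libraries. It was 3 without wt replicate 1 (ECM22 and HES1 added) and 2 without wt replicate 2 (ECM22), without wt replicate 3 (ERG4) or without snf2 replicate 2 (HES1). Strain and snf2 label cannot be told apart here.

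In cyc8 snf2 against wt 12 of 32 rose (37.5%) and 0 fell, where 9.71% of all genes rose and 3.97% fell. At adjusted p below 0.05 alone, 20 were higher and 4 lower, against 25.3% and 25.6% of all genes, and the median log2 fold change of the 32 was 0.43 against -0.03. They were the 12 that rose in cyc8 against wt with ERG4 in place of ERG28. This comparison shares the wt libraries with the others and combines both labels and the background. HES1 (10.9-fold), SUT1 (7.76-fold) and ERG25 (4.89-fold) led. ERG4 sat at the 2-fold line (log2 1.00 ± 0.08, adjusted p = 3.81e-07, edgeR) and lost its call without cyc8 snf2 replicate 1 (0.97) and without wt replicate 1 (0.98) or 2 (0.92).

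Against cyc8, the cyc8 snf2 libraries were lower in RNA of the uptake genes PDR11, SUT1 and AUS1. Strain background, the snf2 label and the cyc8 allele cannot be told apart in this comparison. PDR11 fell, being 2.19-fold lower in cyc8 snf2 (log2 -1.13 ± 0.10, adjusted p = 3.07e-06, edgeR), and was the only one of the 32 to pass both thresholds, where 3.01% of all genes fell and 0.924% rose. At adjusted p below 0.05 alone 10 were lower and 8 higher, against 10.4% and 8.62% of all genes. The lower genes included SUT1 (-0.78), AUS1 (-0.72), UPC2 (-0.77), ERG3 (-0.79), ERG28 (-0.66), ERG11 (-0.56) and ERG1 (-0.41), and the higher genes HES1 (0.65), ARE2 (0.47) and ERG4 (0.33). ERG25 (-0.22 ± 0.09), NCP1 (-0.06 ± 0.07) and ARE1 (0.05 ± 0.08) missed the adjusted p, and their libraries overlapped.

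**Figure D5:**
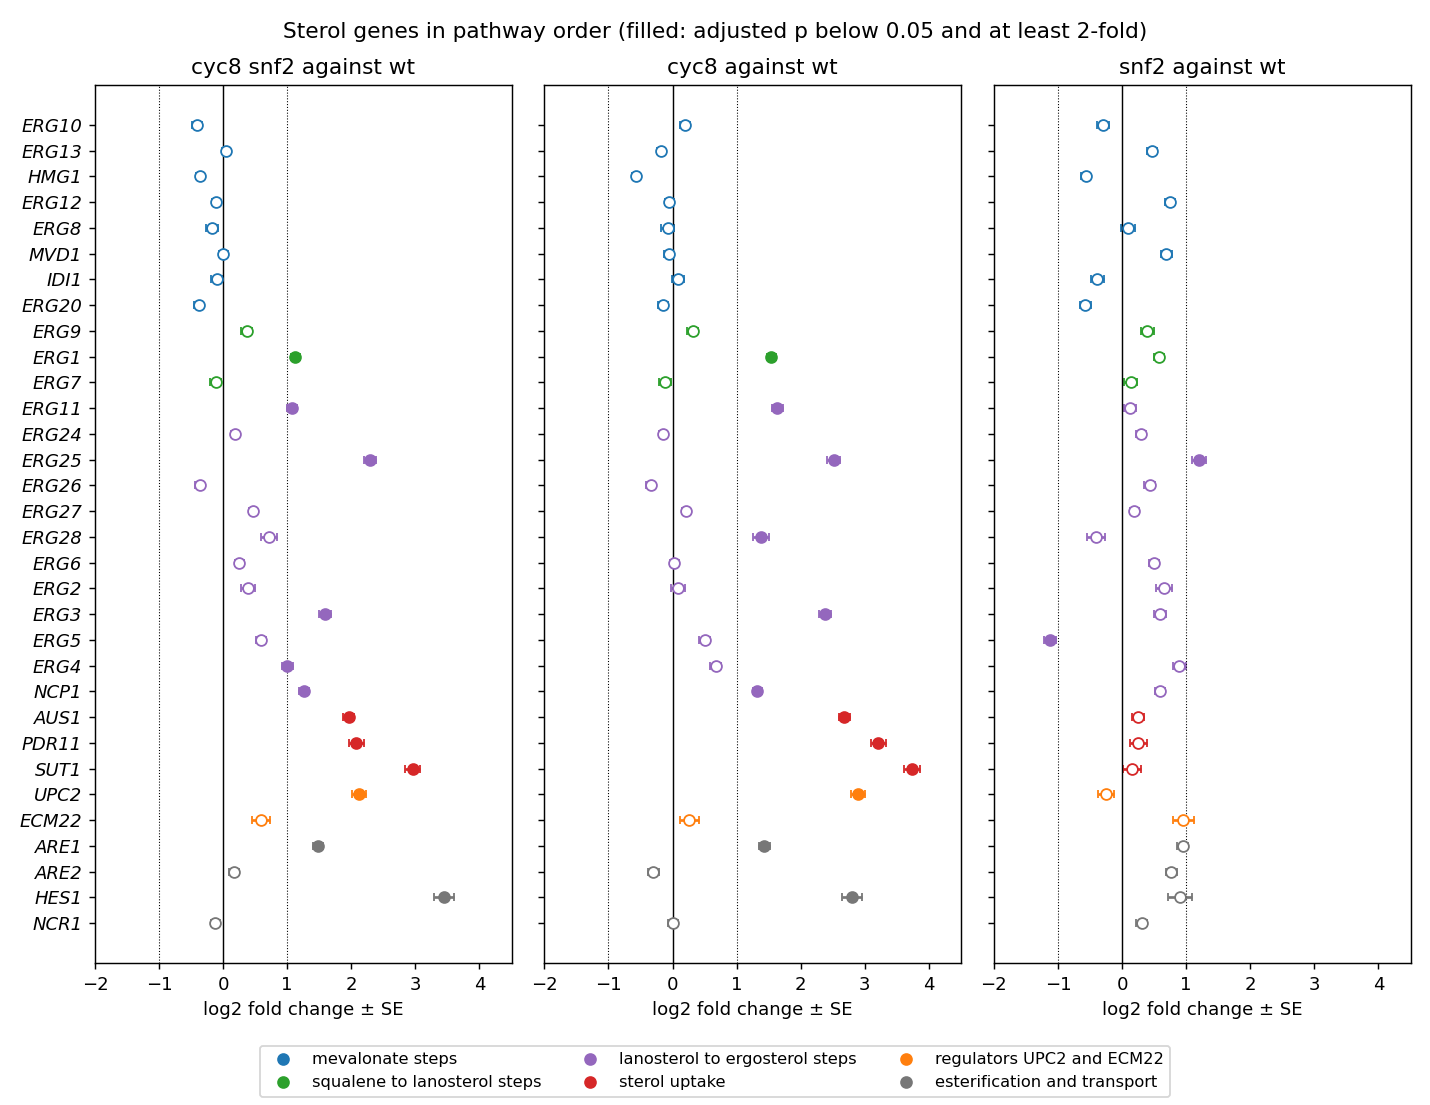
Log2 fold change ± SE (x axes) of the 32 genes (rows, coloured by role) in cyc8 snf2, cyc8 and snf2, each against wt, with filled points where the adjusted p was below 0.05 and the change at least 2-fold, and dotted lines at 2-fold. In cyc8 against wt the uptake genes reach 2.68 to 3.73, and the mevalonate genes stay between -0.57 and 0.19.

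Genes around the pathway were counted from lists that were also chosen with earlier results known. In cyc8 against wt, 0 of 8 other sterol synthesis genes, 0 of 5 genes of HMG-CoA reductase turnover and 0 of 13 sterol transfer proteins rose or fell, where 10.4% of all genes rose and 3.48% fell, shares at which lists of this size hold few calls. Of 8 genes of sterol ester breakdown, acetylation and export, 3 rose: PRY1 (log2 2.99 ± 0.20) and PRY2 (1.20 ± 0.19), which export acetylated sterols, and ATF2 (1.16 ± 0.11), which acetylates them. Of 4 further regulators, ROX1 (1.42 ± 0.17), the hypoxic repressor, and SUT2 (1.15 ± 0.11), the paralog of SUT1, rose. Of 7 genes known to be induced when oxygen or heme is low, 6 rose, among them HEM13 (3.34 ± 0.27) and ANB1 (4.12 ± 0.16). In cyc8 snf2 against snf2 6 of the 7 low-oxygen genes rose, where 9.12% of all genes rose. Of the 8 genes of sterol ester breakdown, acetylation and export, PRY1 (2.23 ± 0.22) and YEH1 (1.01 ± 0.09), a sterol ester hydrolase, rose. SUT2 (1.68 ± 0.13) was the 1 of 4 further regulators to rise. CYB5 (1.13 ± 0.23), which supplies electrons to sterol enzymes, was 1 of 8 other sterol synthesis genes. OSH2 (1.20 ± 0.12) was 1 of 13 sterol transfer proteins. The shares for the lists of CYB5 and OSH2, 12.5% and 7.69%, were near that of all genes. In snf2 against wt, 5 of the 7 low-oxygen genes fell, where 5.4% of all genes fell. So did 2 of the 8 genes of sterol ester breakdown, acetylation and export, PRY1 (-1.55 ± 0.22) and ATF2 (-1.12 ± 0.13).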

How the data were processed

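Yeast RNA (hot phenol extraction, depletion of ribosomal RNA, paired-end HiSeq reads, per the labels' protocols) was measured in 12 libraries. The authors deposited raw counts per gene model in 1 table of 7150 models, whose 4 emptied lines went unused. The submitters' processing notes name STAR, featureCounts, deepTools and build R64. No source used here gives their versions or the strandedness. The values show counting by strand, since 91 named models lying wholly inside a model of the opposite strand had a median total of 2339 counts. All 109 models inside a model of the same strand had 0 counts.

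The members and lists were chosen with earlier results of these data known. The 12 ribosomal RNA models (2 counts in all) were left out. edgeR 4.0.16 (quasi-likelihood test, R 4.3.3, robust dispersions, TMM factors 0.853 to 1.22, filterByExpr) was run on all 12 libraries with 1 mean per group and adjusted over 6171 genes by the Benjamini-Hochberg method. Calls needed an adjusted p below 0.05 together with a 2-fold change. Any of the 32 genes could be named, and of the other lists those called. A count of 0 allows up to 3 counts, or 0.105 to 0.192 CPM, which covers counting error only. Tried besides were upper-quartile and RLE scaling, no filter and a stricter filter (1 CPM in 3 libraries), dispersions without the robust option, a block for replicate number, separate fits per comparison, DESeq2 1.42.0, voom of limma 3.58.1 and the omission of each library. Replicates differed beyond sampling noise in all 13 pairs (chi-square per degree of freedom 6.89 to 84.4). Models were matched to RefSeq by locus tag (6441 of 7150), and upstream windows come from the RefSeq genome of R64. The edgeR calls of cyc8 against wt were also tried on simulated counts.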

Additional observations from a re-analysis of the deposited data

Results flagged for a closer look

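In the 4 cyc8 snf2 libraries, 1 library stood apart from the other 3 for 4 of the 32 genes, by Dixon's ratio of the gap to the whole range, which was above the 95% critical value. Chance flags about 1 in 20 groups. The ratio was 0.979 for ERG28, at 232, 184, 184 and 183 CPM, where replicate 1 was high. It was 0.902 for HMG1, at 89.5, 90.3, 97.4 and 90.2 CPM, with replicate 3 high, and 0.900 for ERG26, at 82.5, 80.5, 80.5 and 80.3 CPM, with replicate 1 high. For ERG11, at 1389, 1663, 1653 and 1618 CPM, it was 0.835, with replicate 1 low. Groups of 3 and 2 were not examined in this way.

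The effect of the cyc8 label differed between the backgrounds by the interaction test for ERG25 (log2 -1.42), PDR11 (-1.38) and ERG3 (-1.38), whose change was smaller in cyc8 snf2 against snf2 than in cyc8 against wt, and for ERG5 (1.21), whose change was larger. ERG25 was 2.13-fold higher in cyc8 snf2 than in snf2 and 5.71-fold higher in cyc8 than in wt. ERG5 stood at 65.6 to 67.7 CPM in snf2, below its 129.5 to 155 CPM in wt. Strain background, the snf2 label and the cyc8 allele (cyc8::KAN or cyc8::URA3) cannot be told apart in these differences.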

How the results depend on the processing

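The 128 results of the 32 genes past adjusted p 0.05 gave 2670 values under alternatives, of which 2636 kept their direction and side of the threshold, 8 lost the call, 26 gained it and 0 reversed. Among the results that missed adjusted p 0.05, which are not in this tally, 42 values changed sign. The counts that moved by over 1.5 times were those of snf2 against wt and of the interaction. In snf2 against wt 1 gene rose, against 2 with upper-quartile scaling and 1 to 3 when a library was left out. For the interaction below 0, 3 genes passed, against 3 to 6 when a library was left out. When a library was left out, the other counts ranged over 12 to 12 (cyc8 against wt), 11 to 12 (cyc8 snf2 against wt), 8 to 10 (cyc8 snf2 against snf2) and 1 to 1 (cyc8 snf2 against cyc8, lower). With upper-quartile scaling 10 rose in cyc8 snf2 against wt and 6 in cyc8 snf2 against snf2. Same-numbered libraries did not deviate together (correlations -0.135 to 0.210 over 15 pairs, and 1 of 12 libraries closest to its own number), so numbers were not taken as pairs. With the replicate block 12 genes rose in cyc8 against wt, 8 in cyc8 snf2 against snf2 and 1 in snf2 against wt, as without it. With upper-quartile scaling ERG11, narrowly, and ERG4 (0.93) missed 2-fold in cyc8 snf2 against wt, as did ERG4 (0.997) with no filter on low counts. The cause of these changes was not tested. Where edgeR gave 0 genes that fell, 5 (cyc8 against wt), 4 (cyc8 snf2 against wt) and 11 (cyc8 snf2 against snf2) were lower at an unadjusted p below 0.05, and 10 were higher in cyc8 snf2 against cyc8, where 0 rose. DESeq2 and limma-voom also gave 0 in each of these. The lowest count of any of the 32 genes was 32, so depth limited HES1 most. Fits of the compared libraries only do not apply to the interaction.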
